A study of Vitis vinifera with 23 samples.

Results

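The samples described here are the exposed Sauvignon blanc berries at the end of their green growth (EL33) and at véraison, the onset of ripening, 6 of the 23 samples of the series, with 3 at each stage. They were chosen by treatment and stage in the labels, which call the later stage EL34 where the paper has EL35. Of the 29970 genes measured, 17930 averaged 1 FPKM or more in either group and were tested for a change between the stages. FPKM is the number of sequenced fragments of a transcript, scaled by its length and by the mapped fragments of the library, so that it is a level per length.

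Vitis vinifera cv. Sauvignon blanc, a white cultivar, was grown in a vineyard at Elgin, South Africa. In the exposed panels the leaves and lateral shoots around the bunches had been removed at EL29 on the side that received the morning sun, while the control panels kept their canopy. The panels alternated in 2 adjacent rows, and 3 panels of each treatment were sequenced. The berries were whole apart from the seeds, which were taken out after freezing, so skin and pulp were measured together and fewer cells of a type cannot be told apart from less RNA per cell. The labels give a sample number for each replicate and do not say how far the sampled bunches were independent, so the p-values measure the spread between these samples.

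Véraison is the point at which a grape berry stops being a hard, green, acidic organ and begins to soften and to store hexoses. Sucrose arriving in the phloem is cleaved into glucose and fructose, cell wall polymers are loosened and cut, malate is no longer accumulated but respired, chloroplast functions are lost, and the berry fills with pathogenesis-related proteins. Abscisic acid promotes the transition and auxin delays it, and in coloured cultivars factors of the MYBA family switch on anthocyanin synthesis. In the text, FPKM values of a group are given in the order of replicates 1, 2 and 3, log2 changes are véraison minus EL33 on log2(FPKM + 0.1) and carry their standard error after ±, each group has n = 3, and a gene is said to have risen or fallen where its p from limma, adjusted over all 17930 genes, was at most 0.05. Because of the added 0.1, these changes are smaller than the true ones for weakly expressed genes.

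Read counts were not used here. Relative depth, read from the steps between low FPKM values and scaled to a median of 1 over the 23 samples, was 1.40, 0.997 and 1.55 in the exposed samples at EL33 and 0.686, 0.705 and 1.06 at véraison. Replicate 2 was thus the shallowest of the EL33 exposed samples, and véraison replicates 1 and 2 were shallower still. The median SD of log2(FPKM + 0.1) between replicates was 0.215 in the exposed group at EL33, against 0.147 to 0.208 in the 7 other groups of the series. Pearson's r across genes between replicates was 0.879 to 0.901 in the exposed samples at EL33, 0.894 to 0.915 in those at véraison and 0.925 to 0.931 in the control samples at EL33.

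The berries were checked with 5 markers of ripening berries and 11 markers of seeds. The summed level of the berry markers was 21140, 11319 and 15228 FPKM in the exposed samples at EL33 and 78643, 58156 and 61986 FPKM at véraison, and 4 of the 5 rose, a number that was 2 without any 1 of the 3 véraison replicates. The study had chosen all 5 as rising markers on its control berries. ASR2 (Vv18s0072g00380), an abscisic acid and stress responsive protein and the most abundant of them in the green berries, was at 14251, 10956 and 10195 FPKM at EL33 and 30129.8, 22745 and 19072 FPKM at véraison, and did not pass (log2 change of 1.01 ± 0.40, adjusted p = 0.099). The seed markers summed to 184, 4.79 and 45.3 FPKM at EL33 and to 537, 1753 and 863 FPKM at véraison. The 2S albumin Vv19s0177g00090, a storage protein of the embryo and endosperm, was at 63.4, 0.764 and 0 FPKM and then at 2.05, 505 and 36 FPKM, and among the control samples at EL33 it was at 840.3, 8.14 and 1.12 FPKM. Transcripts of seed storage proteins were therefore highest in exposed replicates 2 and 3 at véraison, in exposed replicate 1 at EL33 and in control replicate 1 at EL33. Of the 11 seed markers 2 rose, against 18.3% of all genes tested. The number was 5 without EL33 replicate 1, 4 without véraison replicate 1, 1 without véraison replicate 3 and 6 in the fit of all 23 samples. The 2 that rose were the oleosins Vv02s0234g00110 and Vv04s0008g00540, which coat oil bodies and which also rose in the control berries, by log2 changes of 4.86 and 3.59. Vv02s0234g00110 kept its call without 4 of the 6 libraries. The other 9 did not pass, and the part of seed tissue in the values of other genes was not tested.

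**Figure D1:**
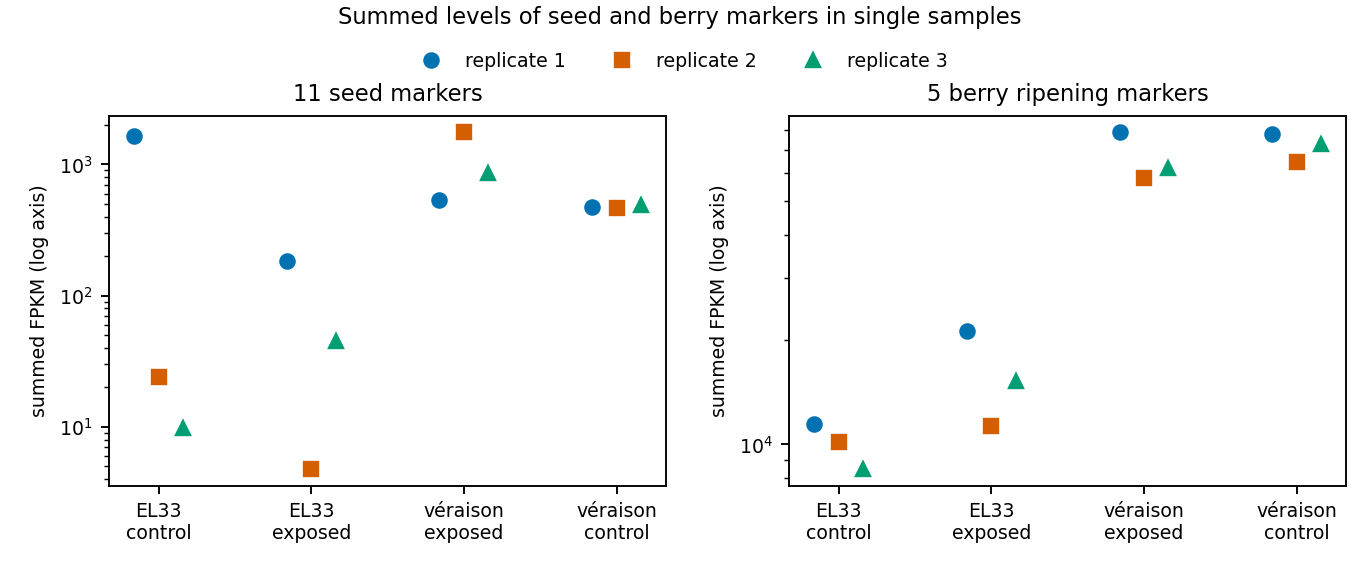
Summed FPKM of the 11 seed markers (left) and of the 5 berry ripening markers (right) in each sample at EL33 and véraison, on log axes, with 1 symbol per replicate. The berry markers of the véraison samples lie above those of every EL33 sample, whereas the seed markers range from 4.79 to 184 FPKM in the exposed samples at EL33 and from 537 to 1753 FPKM at véraison.

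From EL33 to véraison, 6515 of the 17930 genes changed in the exposed berries, which is 36.3% of the genes tested. Of these, 3286 rose (18.3%) and 3229 fell (18%), and among them 536 rose and 639 fell by 4-fold or more. The median log2 change of all genes was 0.02. The 3 values at véraison lay all above or all below those of EL33 for 9520 genes (53.1%), with 4908 higher (27.4%) and 4612 lower (25.7%). Leaving out 1 library at a time gave between 3970 genes, without véraison replicate 1, and 6072 genes, without EL33 replicate 1. The count was 4057 without véraison replicate 3 and 4834 without EL33 replicate 2.

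**Figure D2:**
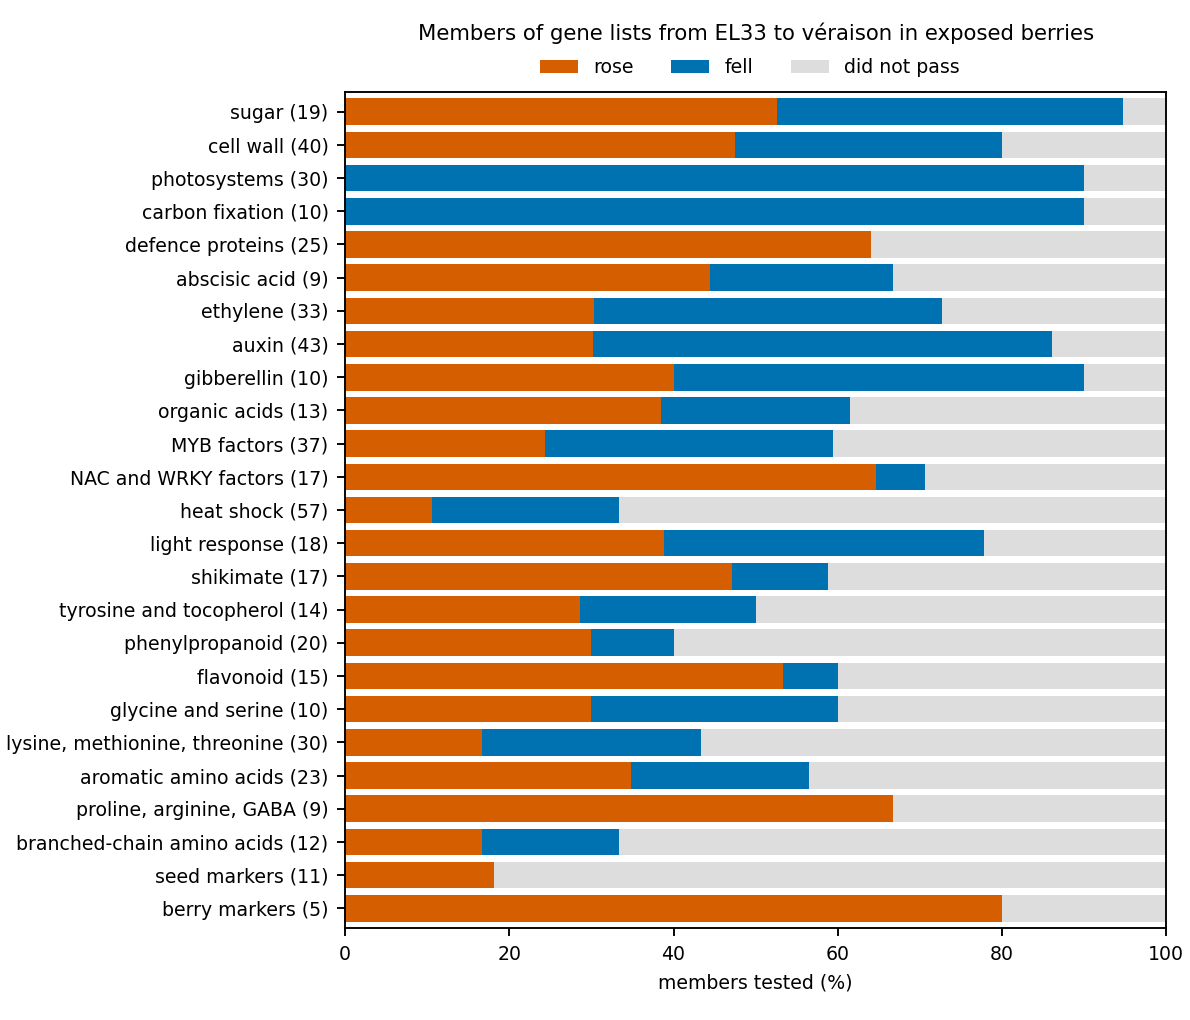
Share of the tested members of each gene list that rose, fell or did not pass in the exposed berries between EL33 and véraison, with the number of members tested in parentheses. No photosystem or carbon fixation gene rose, no defence protein gene fell, and the background over all genes is 18.3% risen and 18% fallen.

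The largest rises among the annotated genes were led by Vv00s0225g00230, annotated as a tyrosine aminotransferase in one table of the study and as an alliin lyase precursor in another. Its level was 4.04, 0.0573 and 1.31 FPKM at EL33 and 336, 189.7 and 297 FPKM at véraison, with a log2 change of 8.10 ± 1.15, adjusted p = 0.00516. A further gene annotated as a tyrosine aminotransferase in the first table and as an alliinase in the second, Vv00s0394g00040, went from 0.375, 0 and 0.0729 FPKM to 7.83, 5.54 and 7.35 FPKM (log2 change of 5.10 ± 0.61, adjusted p = 0.00392). Both were low in green berries and were found in all 3 véraison samples. A laccase gene, Vv18s0164g00100, whose product oxidizes phenolic compounds, rose from 2.99, 0.0389 and 2.81 FPKM to 97.6, 67.4 and 106 FPKM (log2 change of 6.37 ± 1.21, adjusted p = 0.0111). The GDSL lipase gene Vv09s0002g00580 was at 0.104, 0 and 0 FPKM at EL33 and at 8.1, 9.63 and 11.1 FPKM at véraison (log2 change of 6.25 ± 0.40, adjusted p = 0.00268), a rise with little spread between the véraison samples. ATPP2-B14 (Vv14s0060g02000), named after an Arabidopsis phloem protein, had 1.76, 0.27 and 0.757 FPKM and then 49.2, 25.4 and 44.8 FPKM (log2 change of 5.52 ± 0.61, adjusted p = 0.00355).

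Others among the 12 largest rises were a short-chain alcohol dehydrogenase, a 1,8-cineole synthase, a hypoxia-responsive and a wound-induced protein, a class IV chitinase, a thaumatin and an ACC oxidase, with log2 changes between 5.58 and 6.74. The alcohol dehydrogenase gene Vv08s0040g01200 was at 9.67, 0.273 and 6.05 FPKM and at 234, 133 and 209 FPKM (log2 change of 6.05 ± 1.21, adjusted p = 0.0129). The monoterpene synthase gene Vv00s0266g00040, whose annotated product is the aroma compound 1,8-cineole, was at 2.89, 0 and 0.794 FPKM and at 28.7, 23.5 and 42.5 FPKM. In all 12 the EL33 value of replicate 2 was the lowest or shared the lowest place, while it was the lowest for 40.3% of all genes tested. A low EL33 value raises the log2 change by which the 12 were chosen, so this order is partly built in. In the hypoxia-responsive, wound-induced, lipase, cineole synthase and lipid transfer genes replicate 2 at EL33 was listed at 0. The wound-induced gene (Vv12s0057g00090) and the cineole synthase gene each kept the call without 4 of the 6 libraries, the thaumatin (Vv02s0025g04290) without 3, with an adjusted p of up to 0.0806, and the hypoxia-responsive gene (Vv13s0067g02300) without 2, with an adjusted p of up to 0.126 and of 0.054 with the replicate number as a block. One of the 12, the lipid transfer or seed storage protein gene Vv14s0108g00520, was at 0.493, 0 and 0 FPKM at EL33 and at 1.44, 50.4 and 20.3 FPKM at véraison. Its level was highest in the véraison samples with the most 2S albumin, it was listed at 0 in all 6 control samples of these stages, and it kept its call when EL33 replicate 1 or véraison replicate 1 was left out but lost it without any other library, with an adjusted p of up to 0.073, and it was 0.066 with the replicate number as a block.

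The deepest fall of an annotated gene belonged to Vv09s0002g00670, a SAUR gene of the auxin-responsive kind, with 142, 227 and 149.9 FPKM at EL33 and 0, 4.42 and 0 FPKM at véraison (log2 change of -8.89 ± 1.50, adjusted p = 0.00785). A pair of RADIALIS-type genes close to each other, which encode small MYB-related factors, fell as well. The first, Vv03s0063g02620, was at 491, 297 and 169.5 FPKM and then at 5.47, 34.7 and 0.861 FPKM (log2 change of -5.67 ± 1.27, adjusted p = 0.018), and the second, Vv03s0063g02670, at 30.7, 31.1 and 30.6 FPKM and then at 1.11, 1.83 and 0 FPKM (log2 change of -5.65 ± 1.08, adjusted p = 0.0113). The first kept its call without 4 of the 6 libraries. An inhibitor of invertases or pectin methylesterases, Vv01s0011g05390, fell from 39.6, 38.1 and 25.4 FPKM to 0.205, 2.25 and 0 FPKM (log2 change of -6.35 ± 1.10, adjusted p = 0.00852). BAK1-like receptor kinase Vv00s0294g00100, a co-receptor of brassinosteroid signalling in Arabidopsis, was at 8.87, 13.1 and 7.3 FPKM and then at 0, 0 and 0.516 FPKM (log2 change of -5.71 ± 0.78, adjusted p = 0.00485). The cytochrome P450 gene Vv17s0000g09540 (CYP71A26) was at 43.9, 26.8 and 18.5 FPKM at EL33 and was listed at 0 in all 3 exposed samples at véraison, as was the RAB1A gene Vv00s1603g00010, which had been at 46.6, 3.3 and 9.73 FPKM, so that no fold is given for either. The remaining 5 of the 12 were a pollen allergen homologue, a UPF0041 protein, a 2-oxoglutarate-dependent dioxygenase, a metal ion binding protein and a pectinesterase, with log2 changes of -5.60 to -5.44.

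Berry proteins and defence proteins rose together. Of 34 thaumatins, osmotins, chitinases and other pathogenesis-related proteins listed, 25 were tested, 16 rose and none fell, with a median log2 change of 3.08 against 0.02 over all genes. Over all genes 18.3% rose and 18% fell. Of the 34, 17 members came from a table of ripening markers which the study chose on its control berries, 16 of them as rising, and 26 from its tables of responses to exposure, so the list is no independent evidence of direction. Thaumatin VVTL1 (Vv02s0025g04330), one of the main soluble proteins of ripe grapes, was at 3096, 80.7 and 2301 FPKM at EL33 and 21211, 15102 and 18932 FPKM at véraison (log2 change of 4.45 ± 1.39, adjusted p = 0.0494). Grip22 (Vv06s0004g02560), a ripening-related protein of the kiwellin family, was at 3789.5, 281 and 2730.2 FPKM and 27272, 20293 and 23964 FPKM (log2 change of 4.05 ± 0.99, adjusted p = 0.0236). Replicate 2 at EL33 was far below the other green samples in both. In both, the values of the 2 stages did not overlap, as was the case in this direction for 27.4% of all genes tested. VVTL1 kept its call without only 2 of the 6 libraries, with an adjusted p of up to 0.126 and of 0.0525 with the replicate number as a block, and grip22 without 3 of 6.

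Among the class IV chitinases, which cleave chitin of fungal walls, Vv05s0094g00350 was at 146, 5.4 and 30.1 FPKM and then at 3835, 2004 and 2658 FPKM (log2 change of 6.56 ± 1.13, adjusted p = 0.00838). Its more abundant neighbour Vv05s0094g00340 was at 2773, 27.8 and 1442 FPKM and at 20965, 15083 and 18230 FPKM, and did not pass (log2 change of 5.22 ± 1.69, adjusted p = 0.0559). The thaumatin Vv04s0023g03540 (SCUTL1) started from 4.14, 2.6 and 3.76 FPKM, with little spread, and reached 34.2, 31.3 and 24.6 FPKM (log2 change of 3.08 ± 0.22, adjusted p = 0.00268). Osmotin Vv02s0025g04340 rose from 36.1, 10.9 and 18 FPKM to 448, 232 and 342 FPKM (log2 change of 4.09 ± 0.47, adjusted p = 0.00373). The class I chitinase Vv00s1290g00010 behaved differently, with 51.3, 0.155 and 0.0988 FPKM at EL33 and 8.01, 479.9 and 125 FPKM at véraison (adjusted p = 0.123), and was highest in the same 2 véraison samples and the same green sample as the 2S albumin. Many of these genes stand in tandem arrays, and how the authors' counting shared reads between near-identical copies can shift levels from one copy to its neighbour. The number of members that rose was 8 without véraison replicate 1 and 10 without véraison replicate 3, and 2 members fell with the replicate number as a block.

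Cell wall genes moved in both directions, with expansins among those that rose. Of 44 listed, 40 were tested, 19 rose and 13 fell, against 18.3% and 18% over all genes, with a median log2 change of 1.77. Here 32 members came from the study's own marker table, 18 as rising and 14 as falling. The β-expansin EXPB4 (Vv15s0021g02700) was at 262, 7.65 and 260.1 FPKM at EL33 and 2535, 1897 and 2167 FPKM at véraison (log2 change of 4.76 ± 1.38, adjusted p = 0.0399), and the α-expansin EXPA15 (Vv01s0026g02620) at 183, 46.6 and 212 FPKM and 1358, 987 and 949 FPKM (log2 change of 3.15 ± 0.59, adjusted p = 0.0104). Expansins loosen the bonds between cellulose and matrix polymers. EXPB4 kept its call without 3 of the 6 libraries. Polygalacturonase PG1 (Vv08s0007g08330), which cuts demethylated pectin, was at 126, 12.2 and 173 FPKM and 329, 393 and 366 FPKM. Its groups of values did not overlap, as was the case in this direction for 27.4% of all genes tested. PG1 did not pass (log2 change of 2.49 ± 0.98, adjusted p = 0.0955), and neither did the pectate lyase Vv17s0000g09810, which was at 333, 13 and 344 FPKM and 2066, 1653 and 1452 FPKM (adjusted p = 0.0577). For XTH32 (Vv06s0061g00550), an enzyme that cuts and rejoins xyloglucan, the values were 1691, 141 and 1515 FPKM and 6228, 5092 and 5787 FPKM (adjusted p = 0.0543). Without EL33 replicate 2 the adjusted p was 0.011 for PG1, 0.00509 for the pectate lyase and 0.0088 for XTH32, with log2 changes of 1.29, 2.33 and 1.83. Of the 6 fits with a library left out, PG1 and the pectate lyase passed in 1 each and XTH32 in 2. Their adjusted p-values in these fits were up to 0.19, 0.144 and 0.134.

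Genes of wall synthesis and pectin modification were among those that fell, and their EL33 samples lay closer together. The cellulose synthase-like gene CSLE1 (Vv00s0975g00020) fell from 90.1, 103 and 65.2 FPKM to 4.0, 10.4 and 2.52 FPKM (log2 change of -4.13 ± 0.51, adjusted p = 0.00407). Another cellulose synthase-like gene, CSLG3 (Vv02s0025g01850), fell from 2.25, 3.06 and 2.97 FPKM to 0.152, 0.599 and 0.0615 FPKM (log2 change of -3.22 ± 0.60, adjusted p = 0.0107). Pectinesterase Vv05s0062g01160, of the family that removes methyl groups from pectin, went from 5.12, 9.45 and 6.22 FPKM to 0, 0.286 and 0 FPKM (log2 change of -5.44 ± 0.64, adjusted p = 0.00383). The number of cell wall genes that fell was 7 without véraison replicate 1 or 3 and 8 without EL33 replicate 2 or 3.

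**Figure D3:**
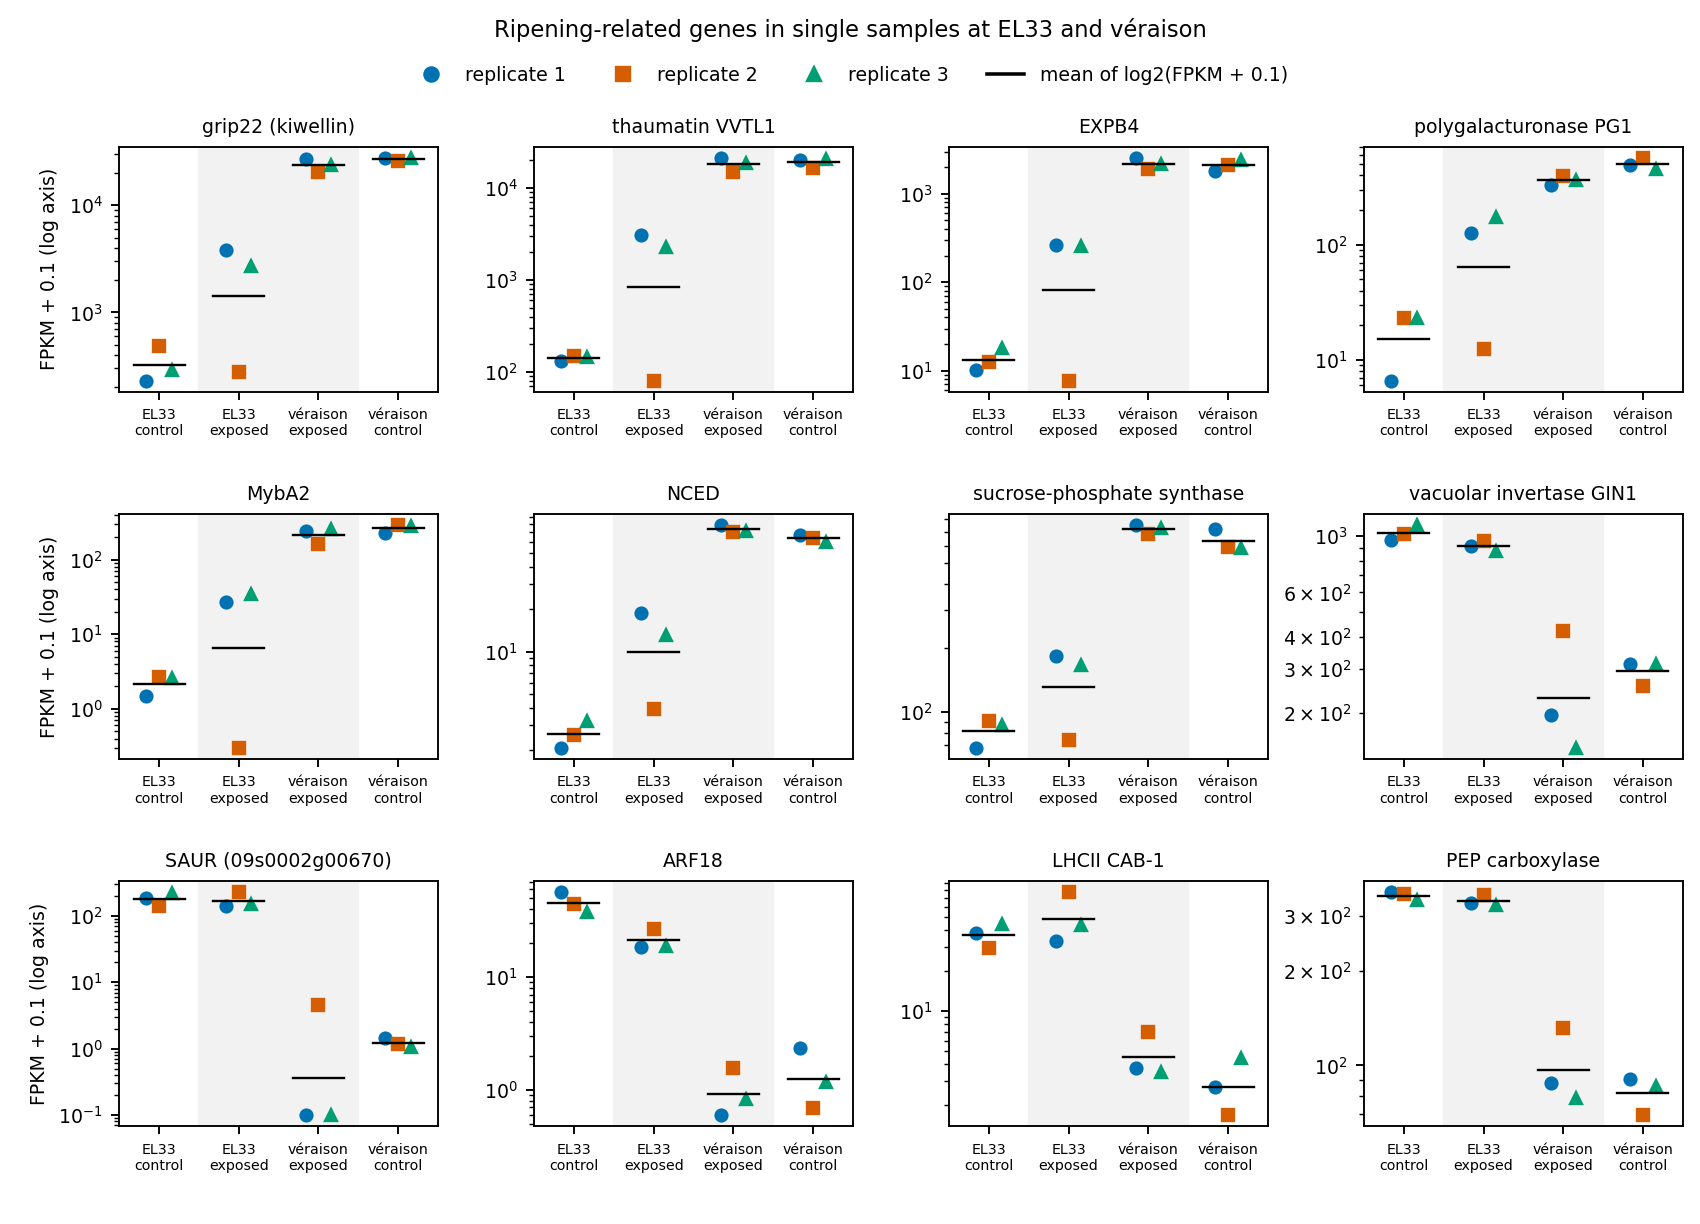
FPKM + 0.1 on log axes of 12 genes in each sample of EL33 and véraison, with 1 symbol per replicate, a bar at the mean of the log2 values and the exposed samples on a grey ground. In 7 rising genes, replicate 2 of the exposed EL33 samples lies well below replicates 1 and 3, near the EL33 control samples, whereas in the 5 falling genes the 3 exposed EL33 samples lie closer together and replicate 2 is the highest exposed sample at véraison.

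Genes of sugar metabolism moved in both directions. Of 21 listed, 19 were tested, 10 rose and 8 fell, against 18.3% and 18% over all genes. The study's marker table held 20 of the 21, 11 of them as rising and 9 as falling. Sucrose-phosphate synthase Vv11s0118g00200, which makes the phosphate ester of sucrose, rose from 183, 73.7 and 166 FPKM to 751, 684 and 733 FPKM (log2 change of 2.46 ± 0.35, adjusted p = 0.00526), and sucrose synthase Vv07s0005g00750, which cleaves sucrose reversibly, from 305, 142 and 257 FPKM to 1071, 858 and 929.7 FPKM (log2 change of 2.09 ± 0.30, adjusted p = 0.00533). The hexose transporter gene HT2 (Vv18s0001g05570) rose by less (log2 change of 0.97 ± 0.15, adjusted p = 0.00636), as did the sucrose transporter gene SUT4 (Vv18s0001g08220, log2 change of 0.86 ± 0.22, adjusted p = 0.0258), which kept its call without 2 of the 6 libraries. The vacuolar invertases, which split the sucrose stored in the vacuole, fell. GIN1 (Vv16s0022g00670) went from 913, 955 and 872 FPKM to 197, 421 and 146 FPKM (log2 change of -1.99 ± 0.38, adjusted p = 0.0115) and GIN2 (Vv02s0154g00090) from 79.4, 95.2 and 104 FPKM to 46.2, 46.5 and 45.3 FPKM (log2 change of -1.0 ± 0.12, adjusted p = 0.00396). The plasma membrane sucrose-proton symporter SUC2 (Vv18s0076g00250) fell from 41.6, 53.7 and 33.4 FPKM to 2.89, 11.3 and 1.82 FPKM (log2 change of -3.39 ± 0.65, adjusted p = 0.0114). The deepest fall in the list was that of the ERD6-like transporter gene Vv14s0030g00260, from 4.94, 8.22 and 4.84 FPKM to 0, 0.366 and 0.0484 FPKM (log2 change of -4.96 ± 0.64, adjusted p = 0.00438). In GIN1 and SUC2, replicate 2 at véraison stayed highest. The number of sugar genes that rose was 6 without véraison replicate 1.

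Of 13 genes of malate and phosphoenolpyruvate metabolism, all tested, 5 rose and 3 fell, and 12 of the 13 came from the marker table. Over all genes the shares were 18.3% and 18%. Phosphoenolpyruvate carboxylase, the enzyme that feeds malate synthesis, was represented by 3 genes that moved apart. Vv12s0028g02180 fell from 329, 349 and 325 FPKM to 87.8, 131 and 78.6 FPKM (log2 change of -1.79 ± 0.20, adjusted p = 0.00366) and Vv01s0011g02740 fell by 1.31 on the log2 scale (adjusted p = 0.00422), while Vv19s0014g01390 rose from 94.7, 58.4 and 84.8 FPKM to 167, 151 and 153 FPKM (log2 change of 1.01 ± 0.19, adjusted p = 0.011). The kinase that phosphorylates the carboxylase, Vv14s0036g00420, rose from 32.4, 17.4 and 29.9 FPKM to 102, 100.3 and 104 FPKM (log2 change of 1.98 ± 0.24, adjusted p = 0.00396). For phosphoenolpyruvate carboxykinase Vv00s1995g00010, which acts in the opposite direction, the change did not pass (log2 change of 0.26 ± 0.14, adjusted p = 0.202) and changed sign after quantile normalization. The NADP-dependent malic enzyme Vv11s0016g03210, which turns malate into pyruvate, was just outside the threshold at 0.42 (adjusted p = 0.0529).

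Photosynthesis genes fell. All 30 photosystem and light-harvesting genes listed were tested, 27 fell and none rose, with a median log2 change of -1.58, and 9 of 10 carbon fixation genes fell with a median of -1.03. In these lists 23 and 9 members were falling markers of the control berries in the study. Over all genes 18.3% rose and 18% fell. The chlorophyll a/b-binding protein gene LHCII CAB-1 (Vv19s0014g00160) went from 33.3, 76.5 and 43.6 FPKM to 3.66, 6.93 and 3.42 FPKM (log2 change of -3.41 ± 0.39, adjusted p = 0.00377), and LHCA5 (Vv18s0001g10550), an antenna protein of photosystem I, from 36.9, 48.3 and 34.7 FPKM to 2.18, 5.84 and 2.89 FPKM (log2 change of -3.53 ± 0.36, adjusted p = 0.00333). PsbO (Vv18s0001g11710), which stabilizes the manganese cluster that oxidizes water, fell from 81.8, 122 and 82.4 FPKM to 9.96, 24 and 8.04 FPKM (log2 change of -2.90 ± 0.42, adjusted p = 0.00554). The small subunit of Rubisco (Vv17s0000g03690), the carbon-fixing enzyme, went from 3351, 4549 and 3241 FPKM to 1451, 1324 and 1189 FPKM (log2 change of -1.48 ± 0.21, adjusted p = 0.00539), and a Rubisco activase (Vv13s0019g02050) from 10.7, 17.1 and 10.7 FPKM to 0.816, 3.57 and 0.752 FPKM (log2 change of -3.15 ± 0.60, adjusted p = 0.0109). In each of these 5 genes replicate 2 was the highest green sample. Between 26 and 27 photosystem genes fell when any 1 of the 6 libraries was left out.

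In the auxin list 43 of 46 genes were tested, 13 rose and 24 fell, against 18.3% and 18% over all genes. The marker table held 38 members, 13 of them as rising and 25 as falling. Auxin response factors, which bind auxin-responsive promoters, were among those that fell. ARF18 (Vv15s0046g00290) went from 18.6, 26.8 and 18.9 FPKM to 0.50, 1.48 and 0.725 FPKM (log2 change of -4.53 ± 0.38, adjusted p = 0.00274) and ARF4 (Vv06s0004g03130) from 42.1, 57.3 and 51 FPKM to 5.73, 9.05 and 5.68 FPKM (adjusted p = 0.00268). SAUR genes, a large family of small auxin-induced transcripts, were on both sides. SAUR37 (Vv11s0016g00500) rose from 1.73, 0.83 and 1.49 FPKM to 20.3, 15.4 and 15.5 FPKM (log2 change of 3.61 ± 0.29, adjusted p = 0.00269) and SAUR29 (Vv16s0098g01150) from 38.5, 9.36 and 54.2 FPKM to 363, 295 and 296 FPKM (log2 change of 3.55 ± 0.64, adjusted p = 0.00934).

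In the abscisic acid list all 9 genes were tested, 4 rose and 2 fell, against 18.3% and 18% over all genes. The marker table held 8 of the 9, 6 of them as rising and 2 as falling. The 9-cis-epoxycarotenoid dioxygenase gene Vv02s0087g00930 (NCED), which makes the first committed precursor of abscisic acid, was at 18.7, 3.81 and 13.1 FPKM at EL33 and 78.7, 70.6 and 72 FPKM at véraison (log2 change of 2.90 ± 0.56, adjusted p = 0.0117). The protein phosphatase PP2CA (Vv13s0019g02200), a negative regulator of abscisic acid signalling in Arabidopsis that is itself induced by the hormone, rose from 104, 53.6 and 117 FPKM to 367, 355 and 390.4 FPKM (log2 change of 2.10 ± 0.30, adjusted p = 0.00516). Both were lowest in replicate 2 at EL33 and nearly equal in the 3 véraison samples.

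Of 37 ethylene genes, 31 of them from the marker table, 33 were tested, 10 rose and 14 fell. Over all genes the shares were 18.3% and 18%. ACC oxidases catalyse the last step of ethylene synthesis, and single genes of the family moved in opposite directions. ACC oxidase 2 (Vv11s0016g02380) was at 15.1, 0.083 and 8.77 FPKM and then at 220.3, 149.8 and 218 FPKM (log2 change of 6.05 ± 1.64, adjusted p = 0.0324), whereas ACC oxidase 1 (Vv00s2086g00010) fell from 647, 667 and 609.7 FPKM to 110.0, 246 and 114 FPKM (log2 change of -2.14 ± 0.32, adjusted p = 0.006). ACC oxidase 2 kept its call without only 2 of the 6 libraries. The transcription factor EIN3 (Vv06s0009g01380), the primary nuclear regulator of ethylene responses in Arabidopsis, fell by 1.67 on the log2 scale (adjusted p = 0.00421), and ERF025 (Vv16s0100g00400) rose from 14.6, 4.14 and 12 FPKM to 78.8, 62.5 and 55.1 FPKM (log2 change of 2.84 ± 0.47, adjusted p = 0.00769). The receptor gene ETR2 (Vv05s0049g00090) did not pass (log2 change of -0.17 ± 0.14, adjusted p = 0.398). The number of ethylene genes that rose was 4 without EL33 replicate 3 or véraison replicate 1 and 6 without véraison replicate 3.

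Of 10 gibberellin genes 4 rose and 5 fell, against 18.3% and 18% over all genes. The number that fell was 3 without EL33 replicate 2 or véraison replicate 3. The gibberellin-regulated gene GASA1 (Vv18s0001g14270) fell from 5179, 4348 and 2964 FPKM to 472, 943 and 434 FPKM (log2 change of -2.81 ± 0.37, adjusted p = 0.00465). The GID1L2 gene Vv07s0104g00930, annotated as a gibberellin receptor, rose from 49, 33.5 and 56.7 FPKM to 169, 137 and 150.0 FPKM (log2 change of 1.74 ± 0.21, adjusted p = 0.00397). Gibberellin 20-oxidase Vv03s0063g01290, of the class that makes the precursors of active gibberellins, was at 71, 0.287 and 34 FPKM and then at 832, 476 and 789 FPKM. It did not pass (log2 change of 6.11 ± 1.92, adjusted p = 0.0506), and without EL33 replicate 2 its adjusted p was 0.0073, and with the replicate number as a block it was 0.0494. Of the 6 fits with a library left out it passed in 2, with an adjusted p of up to 0.128.

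Of the 17 NAC and WRKY transcription factors tested, 11 rose and 1 fell, against 18.3% and 18% over all genes. The marker table held 15 of the 21 listed, 13 of them as rising and 2 as falling. The list is therefore no independent evidence of direction. NAC22 (Vv19s0027g00230) rose from 14.3, 2.96 and 12.7 FPKM to 93.6, 85.9 and 88.8 FPKM (log2 change of 3.44 ± 0.59, adjusted p = 0.00816) and NAC71 (Vv02s0012g01040) from 46.7, 7.48 and 43.5 FPKM to 156, 135 and 163 FPKM (log2 change of 2.60 ± 0.70, adjusted p = 0.0325). NAC71 kept its call without 3 of the 6 libraries. WRKY23 (Vv07s0005g01710), in which the EL33 samples lay close together, went from 67.3, 73.6 and 84.9 FPKM to 230.4, 243 and 272 FPKM (log2 change of 1.73 ± 0.13, adjusted p = 0.00268). The number that rose was 5 without véraison replicate 1 or 3.

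Of 40 MYB genes, 32 of them from the marker table, 37 were tested, 9 rose and 13 fell. Over all genes the shares were 18.3% and 18%. The MYBA genes, regulators of anthocyanin synthesis in coloured grapes, were higher in every véraison sample than in any EL33 sample of this white cultivar, but none of the 4 listed passed. Such a separation, higher at véraison, held for 27.4% of all genes tested. MYBA1 (Vv02s0033g00380) was at 41.5, 0 and 22.8 FPKM at EL33 and 223, 165 and 437 FPKM at véraison (log2 change of 5.79 ± 2.27, adjusted p = 0.0944), and MYBA2 (Vv02s0033g00390) at 26.8, 0.202 and 34.4 FPKM and 242, 160.0 and 253 FPKM (log2 change of 5.03 ± 1.81, adjusted p = 0.0751). MYBA3 (Vv02s0033g00450) and a second gene annotated as MYBA1 (Vv02s0033g00410) had adjusted p-values of 0.0658 and 0.0722. In all 4, replicate 2 at EL33 was far below replicates 1 and 3, at 0 to 1.15 FPKM. Without EL33 replicate 2 all 4 passed, with log2 changes of 3.03, 2.81, 2.53 and 2.5. Each passed in only 1 of the 6 fits with a library left out. Their adjusted p-values in these fits were up to 0.208, 0.167, 0.153 and 0.177, in the same order. These genes are close copies, so their single values are uncertain. MYB4 (Vv14s0006g01620), a repressor of phenylpropanoid genes in Arabidopsis, fell from 42.1, 55.6 and 46 FPKM to 4.12, 7.32 and 5.24 FPKM (log2 change of -3.11 ± 0.23, adjusted p = 0.00268).

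Of 15 flavonoid genes 8 rose and 1 fell, against 18.3% and 18% over all genes, and 5 rose without véraison replicate 1 or 3. The flavonol synthase gene Vv18s0001g03470, whose product makes the flavonols that screen ultraviolet light, rose from 25.3, 27.4 and 26.7 FPKM to 74.5, 56.6 and 70.1 FPKM (log2 change of 1.33 ± 0.13, adjusted p = 0.00313), and flavanone 3-hydroxylase Vv18s0001g14310 from 179, 209 and 229.8 FPKM to 464, 370.1 and 527 FPKM (log2 change of 1.13 ± 0.17, adjusted p = 0.00636). Anthocyanidin reductase Vv00s0361g00040, which makes the epicatechin units of tannins, fell from 9.18, 10.9 and 10.5 FPKM to 2.49, 2.97 and 2.56 FPKM (log2 change of -1.89 ± 0.14, adjusted p = 0.00268). Dihydroflavonol reductase Vv18s0001g12800 did not pass (log2 change of 0.55 ± 0.18, adjusted p = 0.0544). Of 20 phenylpropanoid genes tested 6 rose and 2 fell, against 18.3% and 18% over all genes. PAL2 (Vv13s0019g04460), the entry enzyme of the pathway, rose from 4.39, 4.63 and 5.4 FPKM to 11, 10.2 and 13.2 FPKM (log2 change of 1.24 ± 0.15, adjusted p = 0.00411) and 4-coumarate-CoA ligase Vv16s0050g00390 by a log2 change of 1.94 (adjusted p = 0.00364). Of 17 shikimate and aromatic amino acid pathway genes 8 rose and 2 fell, against the same shares of 18.3% and 18%. CYP79A2 (Vv06s0009g03120), which in Arabidopsis converts phenylalanine to its aldoxime, went from 2.1, 0 and 1.37 FPKM to 22.6, 12.8 and 22.3 FPKM (log2 change of 4.77 ± 1.16, adjusted p = 0.0236). It kept its call without 3 of the 6 libraries. The number of shikimate genes that rose was 2, 5 and 3 without véraison replicates 1, 2 and 3, and 1 fell with the replicate number as a block.

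In the proline, arginine and GABA list 6 of 9 tested genes rose and none fell, against 18.3% and 18% over all genes. The marker table held 5 of the 10 listed, 4 of them as rising and 1 as falling. Among those that rose was the proline synthesis gene Δ1-pyrroline-5-carboxylate synthetase Vv13s0019g02360, from 176, 114 and 167 FPKM to 293, 302 and 259 FPKM (log2 change of 0.92 ± 0.19, adjusted p = 0.0141). It kept its call without 5 of the 6 libraries. Arginine decarboxylase Vv03s0038g00760, the entry to polyamines, rose from 60.7, 41.9 and 52.6 FPKM to 133, 109 and 94.7 FPKM (log2 change of 1.12 ± 0.19, adjusted p = 0.00785). The number of genes of this list that rose was 2 without véraison replicate 1 and 3 without EL33 replicate 2 or 3 or véraison replicate 3. Of 23 aromatic amino acid genes 8 rose and 5 fell, of 30 lysine, methionine and threonine genes 5 rose and 8 fell, of 10 glycine and serine genes 3 rose and 3 fell, and of 12 branched-chain amino acid genes 2 rose and 2 fell, against 18.3% and 18% over all genes. Leaving out any single library changed at least 1 of these counts by over 1.5 times, and with the replicate number as a block 2 aromatic and 1 branched-chain amino acid genes fell. S-adenosylmethionine synthetase Vv05s0020g00670, which supplies the methyl donor and the precursor of ethylene, rose from 1237, 1108 and 1104 FPKM to 2831, 2156 and 2465 FPKM (log2 change of 1.10 ± 0.18, adjusted p = 0.00699), and threonine synthase Vv11s0016g01720 fell from 8.36, 9.84 and 7.52 FPKM to 3.14, 4.17 and 3.26 FPKM (log2 change of -1.26 ± 0.18, adjusted p = 0.00507). In the tyrosine and tocopherol list 4 of 14 rose and 3 fell, against 18.3% and 18% over all genes. Among those that fell was tocopherol O-methyltransferase Vv16s0039g01410, an enzyme of vitamin E synthesis, from 56.6, 95 and 65.2 FPKM to 20, 20.4 and 16.5 FPKM (log2 change of -1.90 ± 0.21, adjusted p = 0.00362).

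All 57 heat shock genes listed were tested, 6 rose, 13 fell and 38 did not pass, with a median log2 change of -0.74. Over all genes 18.3% rose and 18% fell. Of the 57, 47 had been chosen in the study for their response to exposure. The small heat shock protein gene Vv06s0004g05770, a chaperone that holds unfolding proteins, fell from 1199, 1729.8 and 908 FPKM to 216, 551 and 239.9 FPKM (log2 change of -2.01 ± 0.42, adjusted p = 0.015), and another heat shock protein gene, Vv13s0019g02840, from 273, 344 and 177 FPKM to 39.7, 145 and 54.7 FPKM (log2 change of -1.91 ± 0.52, adjusted p = 0.0324). In both, replicate 2 was the highest sample of its group at either stage. Vv06s0004g05770 kept its call without 4 of the 6 libraries and Vv13s0019g02840 without 2, with adjusted p-values of up to 0.0535 and 0.0975. The number that fell was 31 without véraison replicate 2, 1 without véraison replicate 1 or 3, and 4, 5 and 6 without EL33 replicates 1, 2 and 3. The number that rose was 3, 2 and 3 without véraison replicates 1, 2 and 3. Of the 18 light response genes 7 rose and 7 fell, against 18.3% and 18% over all genes. The study had chosen 16 of the 18 for their response to exposure. Galactinol synthase GolS4 (Vv01s0127g00470), which starts the synthesis of raffinose sugars, rose from 148, 32.4 and 77.6 FPKM to 655, 398 and 665 FPKM (log2 change of 2.95 ± 0.56, adjusted p = 0.0108), and a WUSCHEL-type gene (Vv18s0001g10160) from 5.74, 3.38 and 6.37 FPKM to 27.9, 23.2 and 32.6 FPKM (log2 change of 2.45 ± 0.27, adjusted p = 0.00355).

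The exposed samples at EL33 differed in how far the ripening genes had moved. To measure this, 2503 genes were taken that changed in the control berries between the same stages with a log2 change of at least 1.5 in size, and each sample was given the median fraction of that change, with 0 at the EL33 control mean and 1 at the véraison control mean. Over all 2503 genes, the exposed EL33 samples were at 0.209, -0.0177 and 0.209. For the 1166 genes that rose in control berries they were at 0.327, -0.0273 and 0.296, and for the 1337 that fell at 0.116, -0.00439 and 0.135. Replicates 1 and 3 lay alike and above every EL33 control sample, while replicate 2 was within the range of the control samples, which lay between -0.0382 and 0.0213 over the 2503 genes. The range of the control samples is narrow in part because they set the scale.

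At véraison the exposed samples were at 1.0, 0.855 and 1.0 over the 2503 genes, at 0.994, 0.918 and 0.967 for the risers and at 1.03, 0.768 and 1.05 for the fallers. Replicate 2 was therefore the lowest exposed sample on this scale at either stage, and these are not necessarily independent, since the sample names in the labels carry the same code for a replicate number at every stage. The labels do not say what the code is, and it may stand for the vine panel. Among the 1166 risers, replicate 2 was the lowest exposed EL33 sample for 940 genes (80.6%), against 40.3% of all genes tested, and among the 1337 fallers it was the highest for 926 (69.3%), against 32.8%. The genes chosen and the scale come from the control samples, so the exposed samples had no part in the choice.

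**Figure D4:**
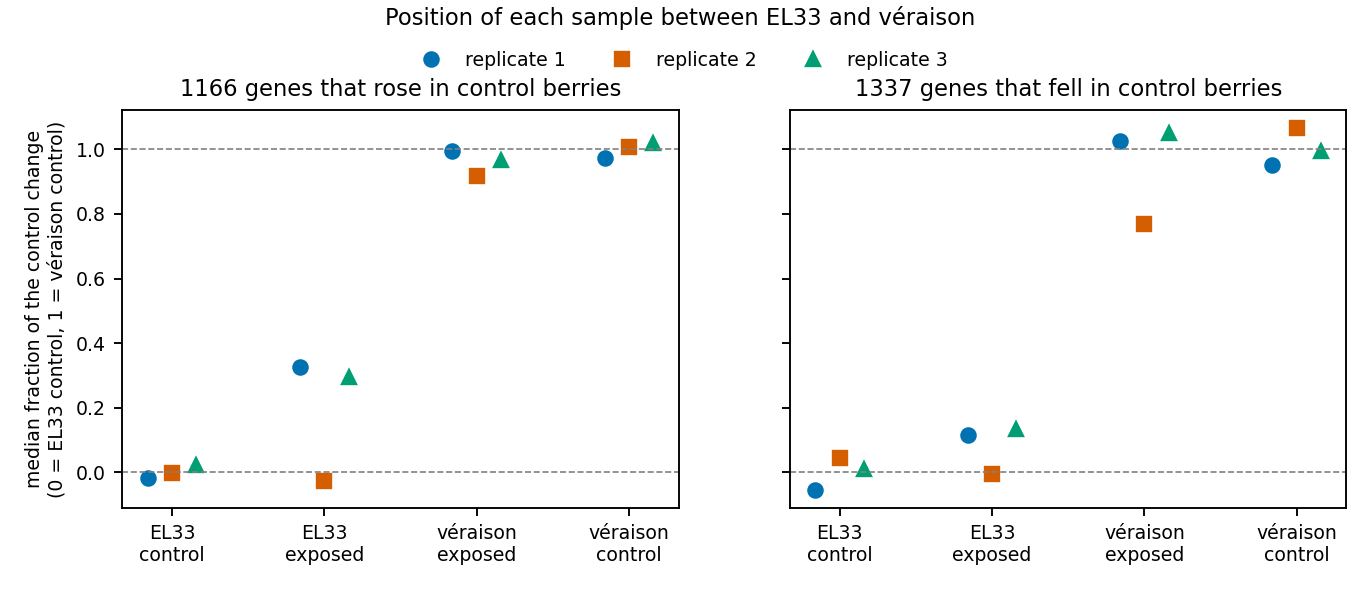
Median fraction of the control change from EL33 to véraison in each sample, for 1166 genes that rose (left) and 1337 genes that fell (right) in control berries, with 1 symbol per replicate and dashed lines at the control means. Exposed replicates 1 and 3 at EL33 lie at 0.327 and 0.296 for the rising genes and exposed replicate 2 at -0.0273.

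Each of the following lists, chosen after their values were seen, showed replicate 2 lowest at EL33. Over the 22 cell wall genes that rose in control berries by this measure, the exposed EL33 samples were at 0.330, -0.107 and 0.363, over 16 defence proteins at 0.424, -0.0945 and 0.312, over 9 MYB genes at 0.443, -0.0573 and 0.521, over 6 ethylene genes at 0.464, 0.0685 and 0.404 and over 5 sugar genes at 0.293, -0.0457 and 0.278. Falling auxin genes, 15 of them, were at 0.120, -0.0135 and 0.177. The 14 photosystem genes lay on the other side of the control berries in all 3 samples, at -0.206, -0.469 and -0.284, which means that their transcripts were, at the median, higher in exposed than in control berries at EL33. Relative depth and the summed seed markers, at 184, 4.79 and 45.3 FPKM, were also lowest in replicate 2 at EL33, and their part in this order was not tested. Over all genes replicate 2 did not stand apart in this way. It was the farthest of the 3 samples from the others for 39.4% of the genes tested and replicate 1 for 38.5%, and r was 0.900 between replicates 1 and 3, 0.901 between 2 and 3 and 0.879 between 1 and 2.

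The 8 annotated genes with the widest range among the exposed EL33 samples were of several kinds. Early nodulin 93 (Vv11s0016g04920) was at 273, 0.547 and 136 FPKM at EL33 and at 4522, 2710.1 and 4438 FPKM at véraison (log2 change of 7.04 ± 2.24, adjusted p = 0.0533), and a hypoxia-responsive gene (Vv13s0067g02300) at 46.5, 0 and 3.89 FPKM and 362, 238 and 262 FPKM (log2 change of 6.74 ± 2.09, adjusted p = 0.0493). In these and in MYBA1, replicate 1 was the highest and replicate 2 the lowest exposed sample at EL33. For the hypoxia-responsive gene, replicate 3 lay within the range of the control samples at EL33, which were at 12.8, 0.444 and 0 FPKM. The 2S albumin, an 11S globulin (Vv07s0005g03410) and the class I chitinase formed another kind, high in replicate 1 at EL33 and in replicates 2 and 3 at véraison. The globulin was at 23.1, 0.13 and 0 FPKM and then at 2.34, 330.1 and 86.9 FPKM. The last pair, both receptor kinase genes, did not pass. Vv13s0067g01750 was at 328, 138 and 0 FPKM at EL33 and at 0, 0 and 0 FPKM at véraison, and Vv02s0033g01290 at 125, 0 and 29.9 FPKM and 26.6, 0 and 0 FPKM.

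Control berries give the same comparison under a full canopy, with no sample in common. In them 8326 of 18040 genes changed (46.2%), 4122 rising and 4204 falling. Of the 17531 genes tested in both treatments 5556 were called in both, which is 86.2% of the exposed calls and 67.7% of the control calls, and 5555 of them changed in the same direction. The median log2 change of the 4090 genes that rose in control berries was 0.90 in control and 0.72 in exposed berries, and that of the 4111 that fell was -1.01 and -0.89. Since these genes were chosen by their call in the control berries, a larger change there is partly built into the choice. The defence proteins had a median log2 change of 3.96 in control and 3.08 in exposed berries, the cell wall genes of 2.13 and 1.77, the photosystem genes of -1.47 and -1.58, and the heat shock genes of -1.89 and -0.74. The study had chosen 26 of 34 defence proteins, 16 of 44 cell wall genes and 47 of 57 heat shock genes for their response to exposure. Markers chosen on its control berries numbered 17, 32 and 14 in these lists. Differences between the treatments in these medians are therefore partly built into the lists.

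**Figure D5:**
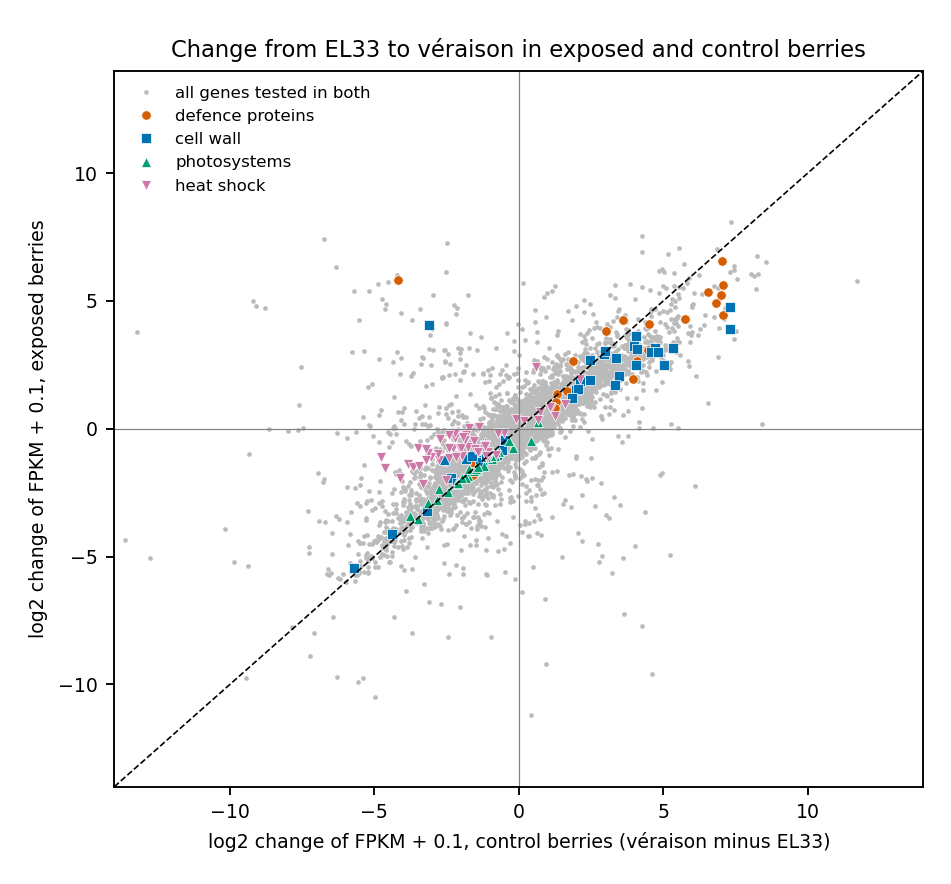
Log2 change from EL33 to véraison in exposed berries against that in control berries for the 17531 genes tested in both, with 4 gene lists in colour and a dashed line of equal change. Rising defence and cell wall genes lie mostly below the line, photosystem genes lie near it and many heat shock genes above it, and 4 genes fall outside the axes.

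The difference between the changes was tested in a fit of the 12 samples. It passed for 4 of 18439 genes (0.0217%), 1 with a more positive (0.00542%) and 3 with a more negative change (0.0163%) in exposed berries, while 1393 genes had an unadjusted p of at most 0.05. With the replicate number as a block 1 gene passed, Vv05s0049g00520. No member of any gene list passed. This count rested on 1 library, since without exposed replicate 2 at EL33 it was 268 of 18423 (1.45%), and without any other of the 12 it was 1 to 10. Of these 268 genes 20 had a more positive (0.109%) and 248 a more negative change (1.35%) in exposed berries, and 245 of the 248 were genes that rose in control berries. Among the list members they included 8 of 40 cell wall genes, 8 of 25 defence proteins, 4 of 38 MYB genes, 4 of 33 ethylene genes and 3 of 19 NAC or WRKY genes, all with the more negative change in exposed berries, and 1 of 57 heat shock genes with the more positive change. These lists were drawn partly from genes that the study chose for their response to exposure. The counts are therefore no independent evidence of a difference.

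The values of these genes show how the single library enters. For EXPB4 the difference of the log2 changes was -2.54 with all 12 samples (adjusted p = 0.782) and -4.24 without that library (adjusted p = 0.000593). EXPB4 was at 10.1, 12.6 and 17.8 FPKM in the control samples at EL33, against 262, 7.65 and 260.1 FPKM in the exposed ones, and at véraison it was at 1799, 2113 and 2394 FPKM and 2535, 1897 and 2167 FPKM. VVTL1 was at 133, 148 and 146 FPKM in the control samples at EL33 and at 20276, 16491 and 20513 FPKM at véraison, with a difference of -2.61 (adjusted p = 0.771) and, without the library, of -4.29 (adjusted p = 0.000593). NCED was at 1.98, 2.48 and 3.13 FPKM and 66.8, 64 and 60.2 FPKM in control berries, and its difference was -1.72 (adjusted p = 0.62) with and -2.39 (adjusted p = 0.00276) without the library. In these 3 genes the véraison levels of exposed and control berries were close to each other. Exposed replicates 1 and 3 at EL33 lay above every control sample of that stage, and exposed replicate 2 lay at or near the level of the control samples. The 3 were named from genes that passed without exposed replicate 2 at EL33 and not with all 12 samples. This order is therefore partly built into the choice. What set replicate 2 apart in these genes was not tested.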

How the data were processed

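The authors sequenced poly(A) mRNA on an Illumina HiSeq (CASAVA 1.8.2), aligned reads to the V1 grape genome with TopHat and computed the deposited FPKM with Cufflinks. Groups came from the labels. From these values, log2(FPKM + 0.1) was fitted with limma 3.58.1 in R 4.3.3 (eBayes with a trend, Benjamini-Hochberg adjustment over all genes tested, threshold 0.05), keeping genes that averaged 1 FPKM or more in a compared group, on the 6 exposed samples, on the 6 control samples and on all 12 for the difference of the changes. The authors' CuffDiff test needs aligned reads. Relative depth was fitted to ratios of FPKM values under 0.06 (245 of 253 sample pairs). Members and lists, taken from annotations in the study's tables, were chosen with earlier results of these data known. Gene identifiers are those of the deposited values. Annotations covered 3727 of the 17930 genes.

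Named genes were the 12 largest rises and falls among annotated called genes without overlap and with at least 5 FPKM in the higher group, list members (up to 5 with the largest change, and those with a role in ripening), genes called in the difference, and the 8 annotated genes with the widest EL33 range. 10 further list members were named after their values were seen. Replicate numbers were checked as pairs (correlations of same-numbered deviations between stages from -0.06 to 0.127 in exposed and -0.09 to 0.0593 in control samples) and were not used as pairs in the fits reported. The sample names share a code across stages for each replicate number, which the labels do not explain and which may be the vine panel. If it is, samples of different stages are not independent, and values from a fit with the number as a block are given where they change a call. The alternatives tried were other pseudocounts, filters, scalings, variance models, sample sets and thresholds, a replicate block, and leaving out each library. The limma fit was tested on simulated data. No sequences or coordinates are given, because the gene table used here holds none for these identifiers. Numbers were computed with Python 3.11.15, numpy 2.4.6, pandas 2.3.3 and matplotlib 3.10.9.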

Additional observations from a re-analysis of the deposited data

Results flagged for a closer look

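The 4 genes whose change from EL33 to véraison differed between exposed and control berries are given here, each with the limma difference of log2 changes (exposed minus control) and its adjusted p. Vv05s0049g00520 had a difference of 17.01 (adjusted p = 8.35e-05). It was at 7023, 787 and 5968 FPKM in the exposed samples at EL33 and 45641, 38941 and 49029 FPKM at véraison, and at 717, 1202 and 1005 FPKM in the control samples at EL33, but it was listed at 0 in all 3 control samples at véraison, so the size of this difference depends on the pseudocount. Vv17s0000g09540 (CYP71A26) had a difference of -7.15 (adjusted p = 0.0127), with 0 listed in all exposed samples at véraison and 3.3, 5.92 and 11 FPKM in the control samples. The size of this value also depends on the pseudocount, and over the 22 alternative fits it lay between -7.67 and -3.98. Vv00s0187g00120, annotated as a cystatin, an inhibitor of cysteine proteases, had a difference of -2.87 (standard error 0.29, adjusted p = 0.0127). It rose from 3.99, 2.91 and 3.74 to 9.9, 8.46 and 6.53 FPKM in exposed and from 1.29, 2.0 and 1.34 to 24.9, 28.6 and 27.7 FPKM in control berries. Vv05s0020g00390, of unknown function, had a difference of -0.91 (standard error 0.11, adjusted p = 0.0422), rising from 27.1, 24.7 and 25.7 to 47.4, 42.8 and 45.6 FPKM in exposed and from 21.5, 20.3 and 19.1 to 68.3, 63.2 and 68.6 FPKM in control berries. In all of the 22 fits the first of these genes passed, whereas the others passed in 16, 17 and 8 of 22, with adjusted p-values of up to 0.201, 0.131 and 0.277. All of these fits took the listed 0 values of Vv05s0049g00520 as they are, so its passing does not test those values.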

How the results depend on the processing

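With 3 samples a group, p-values rest on few degrees of freedom, and depth is known only as a ratio between samples. The exposed change gave between 5668 and 8260 calls under 10 other pseudocounts, filters, scalings, variance models and sample sets, and the control change between 7193 and 9205. An adjusted p of at most 0.01 left 2699, 5406 and 1 calls in the exposed change, the control change and their difference, and 165 of the 322 calls among list members. Leaving out 1 library gave 3970 to 6072 calls in the exposed change, 6687 to 7812 in the control change, 1 to 268 in the difference and 216 to 293 among list members. The 4 calls of the difference became 2 with a pseudocount of 0.5 or 1, 10 without a filter or with median-of-ratios scaling, 7 with quantile normalization and 21 in the fit of all 23 samples. Replicate numbers did not deviate together in every pair, and with the replicate block the exposed change gave 6123 calls, the control change 7717, the difference 1 and the lists 306. The spread of the exposed EL33 samples was 0.194 with a pseudocount of 1. The mean progress of the 3 exposed EL33 samples was 0.133 and stayed between 0.132 and 0.144. Of 171 genes followed, 140 were called, 14 of them lost the call in some alternative other than the stricter threshold and leaving out a library, and 35 lost it without some library. Of these, only phosphoenolpyruvate carboxykinase, not called, changed sign, the Vv00s1995g00010 log2 change being -0.0322 with quantile normalization, and the cause was not tested.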
